A study of Mus musculus with 6 samples.

Results

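The oxygen-sensing core of the hypoxia-inducible factor (HIF) pathway was followed in mouse induced pluripotent stem cells (iPSCs) under intermittent compressive force (ICF). It comprised 9 genes chosen by function, with earlier results of these data known, out of 50686 genes in the count files. These were the alpha subunits Hif1a, Epas1 and Hif3a, the beta subunit Arnt, the prolyl hydroxylases Egln1, Egln2 and Egln3, the asparaginyl hydroxylase Hif1an, and Vhl. All 9 passed the filter on low counts, which kept 16729 genes for testing. The iPSCs came from mouse gingival fibroblasts and had been grown into embryoid bodies, given retinoic acid and attached to gelatin-coated plates. The ICF group was loaded with 1.5 g per square centimetre at 0.23 Hz for 24 h, whereas the control group was left unloaded. Both groups were kept in serum-free medium, shared the retinoic acid treatment and held 3 samples each. The sample labels number them as donors 1 to 3 in each group, called replicates here, although the methods name 1 iPSC source and separate experiments, so p-values measure the spread between these samples, which may be technical. The iPSCs were kept on SNL feeder cells until the embryoid bodies were formed.

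HIF is a transcription factor built from an oxygen-regulated alpha subunit and a stable beta subunit. When oxygen is plentiful, the EGLN (PHD) enzymes use it to hydroxylate prolines of the alpha subunits. The von Hippel-Lindau protein VHL then binds the hydroxylated subunit and has it ubiquitinated and degraded. HIF1AN, also called FIH, hydroxylates an asparagine of the alpha subunits and so hinders coactivator binding. When oxygen is short, the alpha subunits persist and switch on genes of glycolysis, vessel growth and mitochondrial turnover. Egln3 and Egln1 are themselves well-known HIF targets, so they are feedback genes as well as sensors.

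The libraries held 28711166 to 34194413 gene counts each, and the members carried from 288 to 7684 counts per sample. ICF replicate 3 stood apart, since 4 divided 89.0% of its counts above 0, whereas the other 5 libraries had 20.3% to 21.5%. Its counts, as given here, may therefore exceed its number of independent reads, and dividing them by 4 changed no call of a member. Pou5f1, the defining gene of pluripotent cells, had 841 CPM in the control (counts scaled by TMM to a common library size) and 817 CPM with ICF. The 8 pluripotency markers summed to between 3480 and 4220 CPM in the control and to between 3120 and 3550 CPM with ICF. Tdgf1 alone passed edgeR's test, as lower (log2 fold change -0.81, adjusted p = 0.0028), and DESeq2 also called Dppa5a lower (adjusted p = 0.042). By sign 7 of the 8 were lower, and 2 had an unadjusted p under 0.05. With the replicate number as a block edgeR called 3 of the 8 lower, where 15.3% of all genes were. The 9 fibroblast markers summed to between 223 and 250 CPM and to between 251 and 274 CPM, and of 8 tested Col1a1 (log2 fold change 0.75) and Col3a1 (0.73) were higher with ICF. At an unadjusted p under 0.05 there were 4277 of all 16729 genes tested. The endothelial list, led by Pecam1, spanned 94.3 to 110 and 94.7 to 127 CPM and had 0 of 6 tested genes called by edgeR, 2 by DESeq2 and 2 at an unadjusted p under 0.05. The neural list, led by Tubb3, spanned 112 to 121 and 106 to 115 CPM and had 0 of 5 called by edgeR, 1 by DESeq2 and 3 at an unadjusted p under 0.05. Of the 6 endoderm markers (359 to 376 and 353 to 394 CPM) Sox17 was lower. The blood list, led by Cd68, spanned 19.8 to 21.5 and 17.6 to 27.1 CPM with 0 of 2 called by either tool and 0 at an unadjusted p under 0.05, and its globin gene Hbb-bt was at 0 in all samples. The part of these cell types in the results was not tested, and in bulk RNA fewer cells of a type and less RNA per cell cannot be told apart.

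The 2 prolyl hydroxylase genes known as HIF targets, Egln3 and Egln1, fell with ICF, whereas Egln2 did not pass the test. In edgeR's quasi-likelihood test 2 of the 9 members were lower with ICF and 0 were higher. Over all 16729 genes, 4.38% were called lower and 3.47% higher, which makes 7.85% in either direction. As the members were chosen with earlier results known, their counts beside such shares are a description only. Of the 9 members 7 had an unadjusted p under 0.05, as did 4277 of the 16729 genes tested. With the replicate number as a block the counts changed to 5 lower and 2 higher, where 15.3% of all genes were lower and 14.6% higher. With DESeq2 they were 2 and 1, where 7.26% and 5.95% of 14745 genes were called. The ICF and control samples did not overlap in 7 members, 5 of them lower and 2 higher with ICF, and the groups did not overlap in 31.4% of all genes tested (15.7% lower with ICF). An exact two-sided permutation test of 3 samples against 3 cannot go below p = 0.1.

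Egln3 had the largest change of the 9 genes. It encodes PHD3, a prolyl hydroxylase strongly induced by low oxygen in many cells. The gene occupies bases 54178981 to 54203860 of chromosome 12 (GRCm38), reverse strand, with 1 annotated transcript. In the control its level was 244, 245 and 141 CPM in replicates 1, 2 and 3. With ICF it was 34.2, 33.1 and 27.4 CPM. Every ICF sample was far below every control sample, and control replicate 3 was the lowest of the controls. The means were 210 ± 59.8 (SD, n = 3) and 31.6 ± 3.63 CPM (SD, n = 3), giving a 6.66-fold lower level with ICF. The log2 fold change was -2.73 (95% interval -3.20 to -2.27, adjusted p = 0.00036, edgeR), and with each sample left out in turn it stayed between -2.95 and -2.61.

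Egln1 encodes PHD2, the main hydroxylase of HIF-1 alpha in most cells at normal oxygen. The gene occupies bases 124908587 to 124949324 of chromosome 8, reverse strand. It measured 111, 112 and 69.7 CPM in the control and 42.3, 46.4 and 31.6 CPM with ICF. The groups did not overlap, and replicate 3 was the lowest sample of each group. The log2 fold change was -1.28 (95% interval -1.72 to -0.84, adjusted p = 0.0068, edgeR), a 2.43-fold lower level. The fall passed the threshold with each sample left out in turn, with log2 fold changes from -1.47 to -1.13 and adjusted p up to 0.045 (edgeR).

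Egln2 encodes PHD1, which is mostly nuclear and is not known as a gene that low oxygen induces. The gene occupies bases 27158658 to 27166802 of chromosome 7, reverse strand. It measured 62.5, 61.7 and 57.4 CPM in the control and 62.1, 68.6 and 58.7 CPM with ICF, and the groups overlapped. The difference was 0.06 on the log2 scale with a 95% interval from -0.11 to 0.23 (adjusted p = 0.67, edgeR). This interval lies wholly above those of Egln1 and Egln3.

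**Figure D1:**
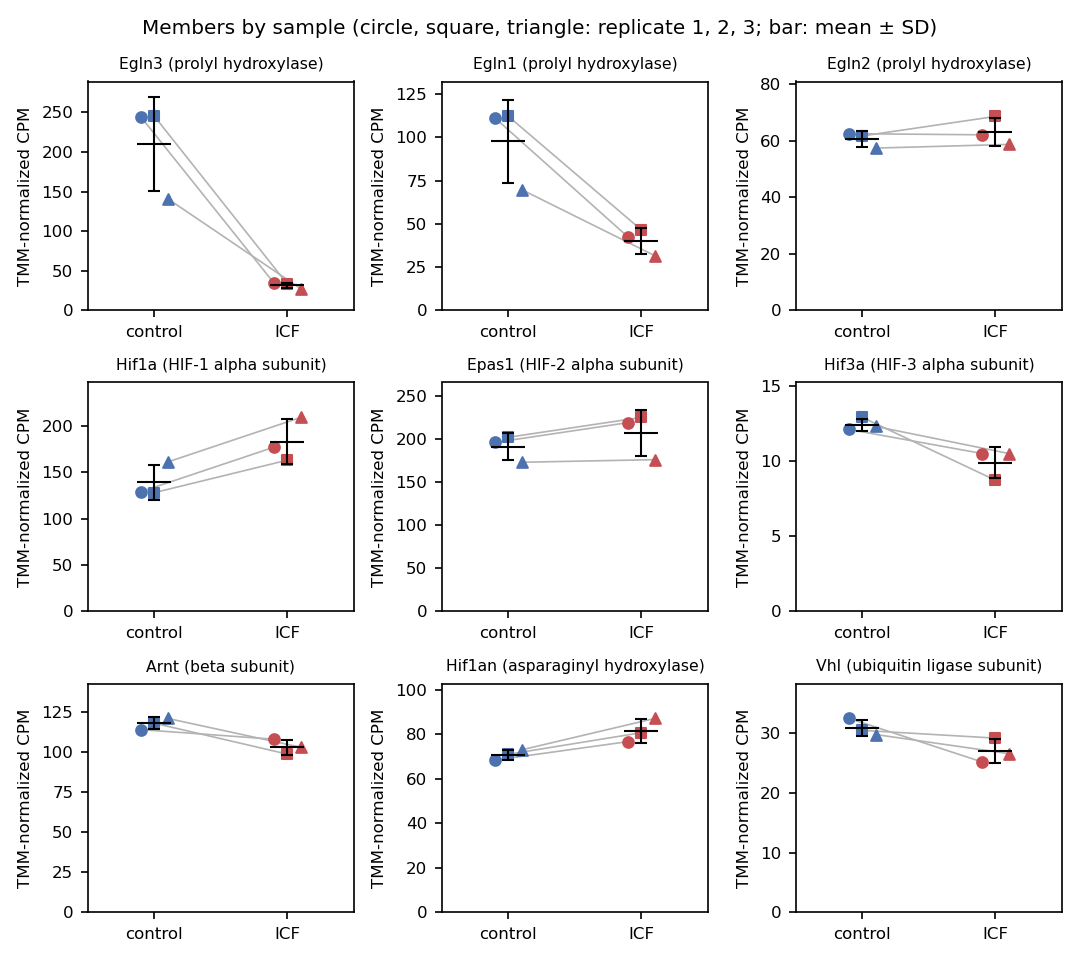
TMM-normalized CPM of the 9 genes in each sample, with 1 panel per gene, the y axis starting at 0, symbols for replicates 1 to 3, grey lines joining samples of the same replicate number and black bars for the mean and SD of 3 samples. Egln3 drops from between 141 and 245 CPM to between 27.4 and 34.2 CPM and Egln1 from between 69.7 and 112 to between 31.6 and 46.4 CPM, while the Egln2 samples of the groups overlap.

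The promoter windows of the EGLN genes and of Hif1a are shown because these genes include both falling members and members that did not pass the test, and because the core of the HIF binding site is a short motif. Each runs from 250 bases before to 50 bases after the RefSeq start site on GRCm38.p6, 5′ to 3′ on the strand of the gene. Capitals mark ACGTG or GCGTG on either strand, and CACGTG holds ACGTG on both strands.
Egln3 chr12:54203825-54204124 (-): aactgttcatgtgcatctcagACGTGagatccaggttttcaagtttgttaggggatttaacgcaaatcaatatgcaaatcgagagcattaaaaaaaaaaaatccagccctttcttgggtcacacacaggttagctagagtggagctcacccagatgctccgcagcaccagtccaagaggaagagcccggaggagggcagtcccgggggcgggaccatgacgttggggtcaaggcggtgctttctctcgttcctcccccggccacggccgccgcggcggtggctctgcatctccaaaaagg
Egln1 chr8:124949205-124949504 (-): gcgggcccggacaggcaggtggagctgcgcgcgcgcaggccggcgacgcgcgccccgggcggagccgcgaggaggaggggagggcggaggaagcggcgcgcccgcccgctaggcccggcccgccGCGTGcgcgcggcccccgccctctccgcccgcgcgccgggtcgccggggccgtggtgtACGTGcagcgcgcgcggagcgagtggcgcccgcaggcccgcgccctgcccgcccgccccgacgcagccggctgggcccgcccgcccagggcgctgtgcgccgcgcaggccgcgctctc
Egln2 chr7:27166753-27167052 (-): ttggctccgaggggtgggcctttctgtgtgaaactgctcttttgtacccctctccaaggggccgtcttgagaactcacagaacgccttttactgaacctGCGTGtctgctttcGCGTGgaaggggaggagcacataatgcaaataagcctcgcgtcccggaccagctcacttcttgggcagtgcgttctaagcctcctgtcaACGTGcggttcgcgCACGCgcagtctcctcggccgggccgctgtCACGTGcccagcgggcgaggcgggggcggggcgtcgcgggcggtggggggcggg
Hif1a chr12:73907617-73907916 (+): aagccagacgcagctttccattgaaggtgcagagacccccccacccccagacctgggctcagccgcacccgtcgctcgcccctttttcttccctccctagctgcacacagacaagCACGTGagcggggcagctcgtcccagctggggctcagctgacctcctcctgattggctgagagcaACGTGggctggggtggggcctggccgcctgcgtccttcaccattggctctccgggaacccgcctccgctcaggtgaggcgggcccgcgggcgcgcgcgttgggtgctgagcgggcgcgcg

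ACGTG was present in the windows of Egln1, Egln2, Egln3 and Hif1a, and in 19.6% of 32851 RefSeq windows of 300 bases. GCGTG was present in 32.4% of all windows and 1 or the other in 43.8%. Windows were matched for 8 members, all but Epas1, and Egln2 had a second window, which held GCGTG alone. Arnt and Hif3a held GCGTG alone, and Vhl and Hif1an held neither motif. The ACGTG nearest to the start site began at position -229 from it in Egln3, at -68 in Egln1, at -70 in Hif1a and at -3 in Egln2. Within these windows of 300 bases, ACGTG was held both by the EGLN genes that fell and by Egln2, which did not pass the test. Sites outside the windows were not searched, and the part of the motif in the changes was not tested.

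Since length affects counts, levels of different genes were compared as CPM per kb of merged exons. On this scale Egln3 made up most of the prolyl hydroxylase mRNA of unloaded cells, with 63.3%, 63.5% and 57.1% of the summed level of Egln1 to Egln3 in control replicates 1, 2 and 3. With ICF its share was 27.5%, 24.9% and 25.7%. Egln2 took the leading place, from 15.4%, 15.2% and 22.1% in the control to 47.4%, 49.2% and 52.3% with ICF. The share of Egln1 differed less, from 21.2% ± 0.296 (SD, n = 3) to 24.3% ± 2.09 (SD, n = 3). These shares depend on the length used, since per kb of its longest transcript Egln2 had 28.7 rather than 21.6 CPM in the control. The summed level of the EGLN genes was 145, 145 and 93.0 CPM per kb in control samples, against 46.8, 49.8 and 40.1 under ICF. The level of Egln3 per that of Egln1 averaged 2.89 ± 0.131 without force (SD, n = 3) and 1.08 ± 0.106 under ICF (SD, n = 3), and Egln3 fell further than Egln1 in every sample pair.

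**Figure D2:**
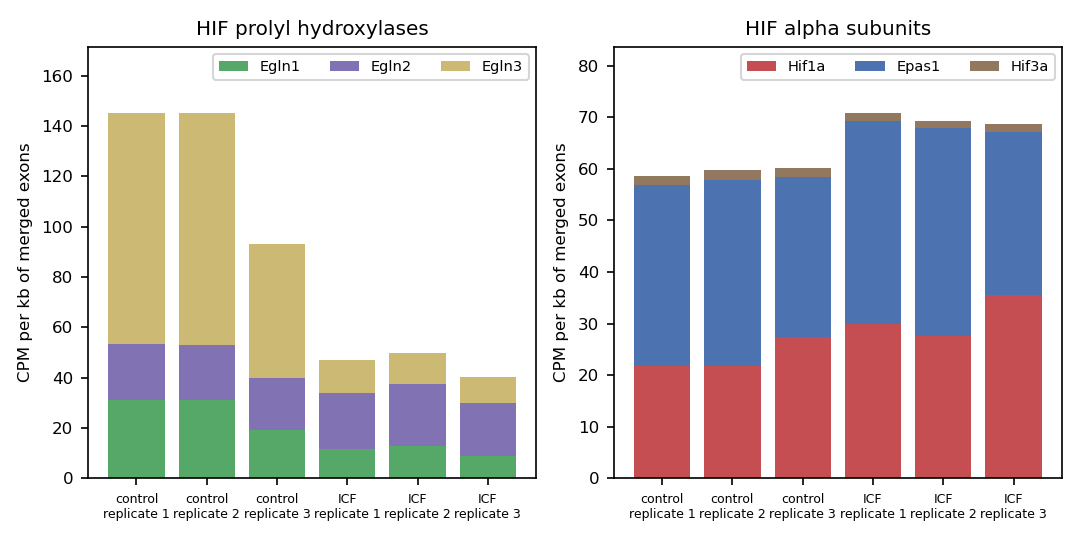
Levels of the prolyl hydroxylase genes (left) and of the HIF alpha subunit genes (right) in each of the 6 samples, stacked, in CPM per kb of merged exons. The summed EGLN level falls from between 93.0 and 145 to between 40.1 and 49.8, mainly through Egln3, while the summed alpha subunit level lies between 58.7 and 60.2 in the control and between 68.6 and 70.8 with ICF.

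Among the subunits, Hif1a differed most, and its difference had the opposite sign to that of Egln1 and Egln3. Hif1a encodes HIF-1 alpha and lies on chromosome 12 from 73901375 to 73947530. Its level was 129, 128 and 161 CPM in the control and 177, 163 and 209 CPM with ICF. The groups did not overlap, although ICF replicate 2 exceeded control replicate 3 by little, and the differences within the pairs were 0.46, 0.35 and 0.38 on the log2 scale. The log2 fold change was 0.39 (95% interval 0.13 to 0.66), and its adjusted p of 0.074 (edgeR) missed the threshold. Blocking on the replicate brought the edgeR adjusted p to 1.7e-07, and DESeq2 gave 0.014. Of the fits that left out 1 sample, only that without control replicate 3 passed (log2 fold change 0.51, adjusted p = 0.023, edgeR). The others gave log2 fold changes from 0.29 to 0.47 and adjusted p from 0.075 to 0.26 (edgeR).

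An antisense gene on the opposite strand of Hif1a, Gm15283 (ENSMUSG00000087700), was singled out after its values were seen, because its exons share 330 bases with those of Hif1a. It spans Hif1a from 73843039 to 73949814 on the reverse strand. It had 111, 120 and 75 counts in the control and 5, 4 and 8 counts with ICF. Its mean level was 3.41 ± 0.697 CPM (SD, n = 3) without force and 0.180 ± 0.0837 CPM under ICF (SD, n = 3), which is -4.24 on the log2 scale (adjusted p = 0.00042, edgeR). Thus the antisense gene fell while the sense gene was higher in all 3 pairs. Of the 2353 exon bases of Gm15283, 2023 lie outside exons of Hif1a. The libraries were made with a kit that keeps the strand, per the methods. Whether the counting used it is not given in the sources used here, and without strand the reads of the shared bases cannot be told apart. Of 422 genes lying wholly within exons of the other strand, 68 had at least 10 counts over the 6 samples, and HTSeq without strand would set such reads aside as ambiguous where its annotation was the same.

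Epas1 encodes HIF-2 alpha, known above all in endothelial cells, and lies on chromosome 17 from 86753700 to 86833410. Its level was 196, 202 and 173 CPM in the control and 219, 225 and 176 CPM with ICF. Replicate 3 was the lowest sample of each group, and the groups overlapped. The difference was 0.12 on the log2 scale with a 95% interval from -0.11 to 0.35 (adjusted p = 0.50, edgeR). It also missed the threshold with the replicate block (adjusted p = 0.083, edgeR), but without replicate 3 of both groups it passed (log2 fold change 0.16, adjusted p = 0.018, edgeR).

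Hif3a, whose splice forms include inhibitors of HIF, was the least abundant member and lies on chromosome 7 from 17031507 to 17062427. Its level was 12.1, 12.9 and 12.3 CPM in the control and 10.5, 8.72 and 10.5 CPM with ICF, without overlap. The difference was -0.33 on the log2 scale (95% interval -0.58 to -0.08, adjusted p = 0.10, edgeR), and with the replicate block it passed in edgeR (adjusted p = 0.011) but not in DESeq2 (adjusted p = 0.10).

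Arnt encodes HIF-1 beta, the common partner of the alpha subunits, and lies on chromosome 3 from 95434388 to 95497240. Its level was 114, 118 and 121 CPM in the control and 108, 98.7 and 103 CPM with ICF. The groups did not overlap, yet the difference was small, with a log2 fold change of -0.19 (95% interval -0.33 to -0.05, adjusted p = 0.095, edgeR). The block on replicate number brought the adjusted p to 0.0067 (edgeR). The level of Hif1a per that of Arnt, per kb, was 1.53, 1.48 and 1.81 for control replicates 1 to 3, below the 2.21, 2.24 and 2.76 of ICF replicates 1 to 3.

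Of the other regulators, Hif1an and Vhl had small differences. Hif1an lies on chromosome 19 from 44562850 to 44576274, and its level was 68.4, 71.0 and 73.0 CPM in the control and 76.7, 80.7 and 87.1 CPM with ICF. The groups did not overlap. The log2 fold change was 0.20 (95% interval 0.05 to 0.36, adjusted p = 0.10, edgeR), which the replicate block took past the threshold (adjusted p = 0.0048, edgeR). Vhl, the substrate receptor of the ubiquitin ligase, lies on chromosome 6 from 113623959 to 113631633. Its level was 32.5, 30.5 and 29.8 CPM in the control and 25.2, 29.2 and 26.6 CPM with ICF, again without overlap. This was -0.19 on the log2 scale (95% interval -0.38 to -0.01, adjusted p = 0.18, edgeR), and the blocked fit gave an adjusted p of 0.040 in edgeR and of 0.16 in DESeq2.

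**Figure D3:**
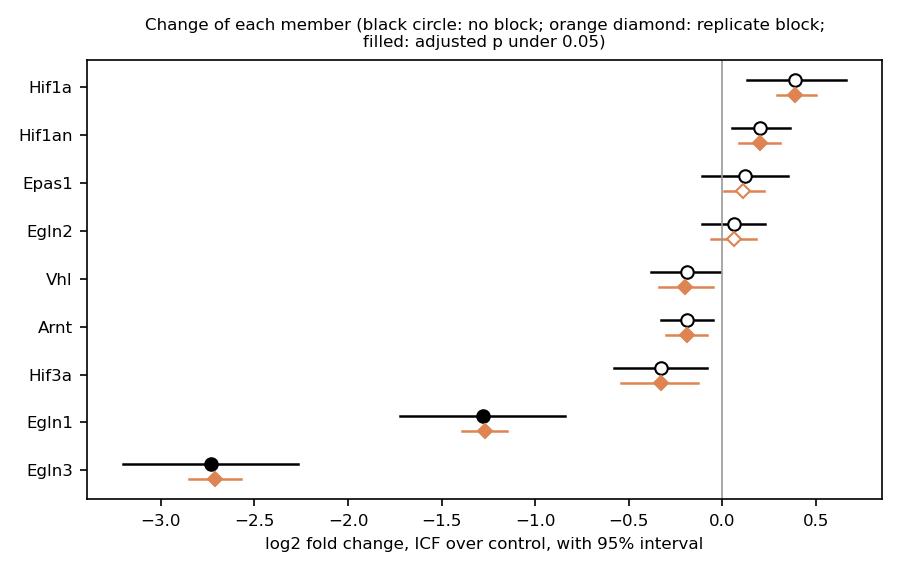
Log2 fold change of each member between ICF and control with its 95% interval, from edgeR without (black circles) and with the replicate block (orange diamonds), filled where the adjusted p was under 0.05. Egln3 at -2.73 and Egln1 at -1.28 are filled in both fits, and the other members lie between -0.33 and 0.39.

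The balance between sensors and subunits was lower with ICF. The summed level of Egln1 to Egln3 per summed level of the alpha subunits, per kb, was 2.47, 2.43 and 1.55 for control replicates 1 to 3 and 0.661, 0.720 and 0.584 for ICF replicates 1 to 3. The alpha subunits together had 59.6 ± 0.769 CPM per kb (SD, n = 3) without force and 69.5 ± 1.11 under ICF (SD, n = 3). Egln3 per Hif1a was 4.21, 4.24 and 1.94 without force, against 0.429, 0.449 and 0.290 under it. In both ratios the groups did not overlap, and control replicate 3 was the control sample nearest to the ICF group. These ratios are a description, depend on the length used and were given no test.

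The order of the members by level differed between the groups. In the control Egln3 was highest, at 79.0 ± 22.5 CPM per kb (SD, n = 3), and no sample of it overlapped with Epas1, the next gene at 34.1 ± 2.75 (SD, n = 3). Egln1 (27.2), Hif1a (23.6) and Egln2 (21.6 CPM per kb) followed, and from Epas1 to Egln2 each gene overlapped with the next. Arnt came next at 14.7, then Hif1an at 10.7 and Vhl at 10.3 CPM per kb, which overlapped, and Hif3a was lowest at 1.85. With ICF the order was led by Epas1 at 37.0 ± 4.77 (SD, n = 3) and Hif1a at 31.0 ± 4.04 CPM per kb (SD, n = 3), which overlapped. Egln2 followed at 22.5 CPM per kb, without overlap on either side. Arnt, Hif1an, Egln3, Egln1 and Vhl lay between 12.9 and 9.02 CPM per kb, each overlapping with the next, and Hif3a was again lowest at 1.47. The order depended on the length used. Per kb of the longest transcript, the control levels were 29.5 CPM for Hif1a, 28.7 for Egln2 and 27.2 for both Egln1 and Arnt. On that length Egln1 thus no longer stood above Hif1a and Egln2, and Hif1a (38.7) rather than Epas1 (37.5) led with ICF.

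The other parts of the VHL ubiquitin ligase were not called over all 6 samples. None of its 4 partner genes passed in edgeR or DESeq2, with 0 at an unadjusted p under 0.05 and a median log2 fold change of -0.06, where the median of all genes was 0.00. The adaptor Elob had a log2 fold change of -0.13 (95% interval -0.39 to 0.14), and 15.6% of its possible 75-base reads also match other genes. Eloc, the other elongin of the complex, had 0.02 (-0.13 to 0.17), the scaffold Cul2 had -0.01 (-0.15 to 0.12) and the RING subunit Rbx1 had -0.10 (-0.24 to 0.05). In the fit with the replicate block 0 of the 4 passed, whereas without replicate 3 of both groups Rbx1 passed as lower (log2 fold change -0.15, adjusted p = 0.041, edgeR).

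Relatives of the subunits in the bHLH-PAS family were also measured. Of 12 such genes 9 were tested, and 0 passed the edgeR test, with 1 called by DESeq2. At an unadjusted p under 0.05 there were 5, where 4277 of all 16729 genes were. The blocked fit called 2 higher and 2 lower. Arnt2, a close relative of Arnt, had 6.98, 7.83 and 7.27 CPM in the control and 5.82, 5.51 and 3.18 CPM with ICF (log2 fold change -0.60, adjusted p = 0.11 in edgeR and 0.00096 with the replicate block). Arntl, the clock factor BMAL1 and the most abundant of these relatives, had a log2 fold change of -0.16 (adjusted p = 0.18, edgeR).

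Among 18 regulators of HIF stability or activity, 1 gene was higher and 0 were lower, with a median log2 fold change of -0.06. At an unadjusted p under 0.05 there were 7, where 4277 of all 16729 genes were. The called gene was Siah1b, of the SIAH family of ubiquitin ligases that act on prolyl hydroxylases. Its level rose from 42.1, 40.9 and 38.9 CPM to 50.5, 50.7 and 61.0 CPM, a log2 fold change of 0.41 (adjusted p = 0.027, edgeR). The call was lost without control replicate 1, control replicate 2 or ICF replicate 1. Some 5.91% of its possible 75-base reads match Siah1a, whose log2 fold change was -0.22. Cited2, a HIF-induced competitor for coactivator binding, had 207, 209 and 189 CPM in the control and 174, 180 and 176 CPM with ICF (log2 fold change -0.19, adjusted p = 0.090 in edgeR and 0.0041 with the replicate block). The blocked fit called 3 regulators higher and 5 lower, and DESeq2 3 higher and 0 lower.

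In contrast, a list of 26 known HIF target genes outside the members had 22 lower and 0 higher, with a median log2 fold change of -0.95. This list was chosen with its fall in these samples known, so its count is no independent evidence of direction. The largest falls were those of Ndufa4l2 (log2 fold change -4.41), a mitochondrial protein gene, Adm (-4.08), the adrenomedullin gene, Ankrd37 (-2.98) and Bnip3 (-2.52), a mitophagy receptor. For Bnip3, 15.3% of possible 75-base reads match other genes on the same strand and 43.2% on the opposite strand. Set among these targets by size, Egln3 was exceeded by 3 falls and Egln1 by 11, whereas Egln2 lay above 25 of the 26 targets.

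**Figure D4:**
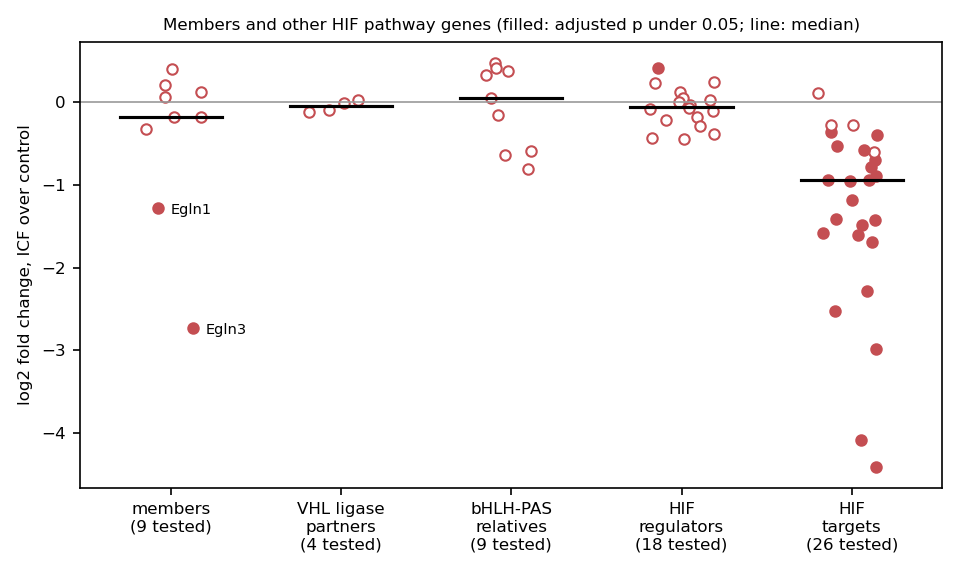
Log2 fold change between ICF and control of each tested gene in 5 lists, filled where the adjusted p was under 0.05, with a line at the median. The HIF targets range from -4.41 to 0.11, which holds Egln1 and Egln3 and also Hif3a, Arnt, Vhl and Egln2. Egln1 and Egln3 lie below every tested ligase partner, relative and regulator, and the other members lie within the range of those lists.

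Genes with the pattern most like that of a called member were sought by the smallest root mean square difference of log2 CPM over the 6 samples, each gene centred on its own mean. For Egln3 these included Grin1 (difference 0.14, Pearson r = 0.995), Aldoc (0.19) and Prmt8 (0.19). Grin1 encodes a subunit of the NMDA receptor and Aldoc a glycolytic aldolase, and their log2 fold changes were -2.83 and -2.37. For Egln1 they were Selenbp1 (difference 0.055, r = 0.998), Tnfsf12 (0.12), mt-Nd6 (0.12) and Alpk3 (0.13). The mitochondrial gene mt-Nd6, a subunit of respiratory complex I, went from 124 to 57.6 CPM. These likenesses rest on 6 samples in 2 groups and are given without a test.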

How the data were processed

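RNA sequencing measured mRNA in 3 ICF and 3 control samples. The authors trimmed reads (Trimmomatic), aligned them (HISAT2) and deposited raw HTSeq counts per gene. The submitters' processing notes name GRCm38 and hg38 as builds, and other versions are not given in the sources used here. HTSeq leaves out reads with several alignments, and 38.1% to 40.3% of reads per sample were in lines that name no gene, which were left out here. Genes were named through GENCODE M21 (GRCm38), which held 50376 of 50686 identifiers. Counts were tested with edgeR 4.0.16 in R 4.3.3 (quasi-likelihood, TMM, filterByExpr, Benjamini-Hochberg over all genes, threshold 0.05). Intervals (95%) were derived from its F statistics. Levels are TMM-normalized CPM. The authors' test was DESeq2, used here (1.42.0) as an alternative.

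Members and lists were chosen with earlier results of these data known. All members were named. From each other list up to 4 called genes with the largest change were named, or else the most abundant gene, with 6 fixed genes (Arnt2, Cited2, Elob, Eloc, Cul2, Rbx1). Samples of the same number carry the same donor label, so the number was used as a replicate block. Their deviations from group means gave correlations over genes of 0.13, 0.17 and 0.32. Differently numbered samples gave r of -0.31 to 0.23, the highest for control replicate 1 with ICF replicate 2. The values set replicate 3 apart but do not show that replicates 1 and 2 pair by number. Adjusted p with the block thus rest on the labels. Pou5f1, Hbb-bt, Siah1a and Gm15283 were named after their values were seen, and 1 gene that the naming rule picked is not reported here. Possible shared reads were 75-base stretches of the longest transcript.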

Additional observations from a re-analysis of the deposited data

How the results depend on the processing

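Egln1 and Egln3 fell past the threshold under all 14 alternatives, with log2 fold changes from -1.47 to -1.13 and from -2.95 to -2.61. Rounded to 2 decimals, no member changed sign under any of them, though Egln2 was at 0 without ICF replicate 2. The replicate block changed no other call of a member than those of Hif1a, Hif3a, Arnt, Hif1an and Vhl, given above. With the replicate block 5 members were lower and 2 higher (Hif1a and Hif1an), and over all genes 2561 were lower and 2445 higher. DESeq2 with the replicate block gave 3 lower members (without Hif3a and Vhl) and 2 higher, 1666 genes lower and 1354 higher. DESeq2 alone gave 1 higher member and 877 higher genes, and a loose filter (at least 1 count in any sample) 1 higher member, in each case Hif1a. Without replicate 3 of both groups 5 members were lower and 3 higher, with 2627 genes lower and 2466 higher. Leaving out any 1 of the 6 samples left 2 members lower and 0 to 1 higher, while 215 to 928 genes were lower and 85 to 724 higher. The counts over all genes dropped by over 1.5 times without replicate 1 or 2 of either group, to between 215 and 349 lower and between 85 and 232 higher, the lowest without control replicate 2. Replicates 1 and 2 were the samples most alike within each group. Their count differences, squared and scaled by counting error, had a median over genes of 0.966 in the control and 1.04 with ICF. For pairs with replicate 3 it was 2.68 to 4.91. The causes were not tested. RLE size factors, a strict filter (at least 10 counts in every sample) and dividing the counts of ICF replicate 3 by 4 changed no call of a member. HIF targets called lower numbered 17 to 25 over the alternatives, against 22. Gm15283 fell past the threshold in every alternative that kept it, from -4.80 to -4.02. Among the members Hif3a had the fewest counts, 288 to 403 per sample, and Gm15283 had 4 to 8 with ICF.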
